A study of Mus musculus with 2 samples.

Results

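A set of 42 genes of lipid uptake, fatty acid oxidation and acetate use were followed in single-nucleus RNA sequencing of mouse tibialis anterior (TA), a fast muscle of the lower leg. The 42 members were the rows of the 2 count matrices whose gene symbol is on a fixed list, out of 32285 genes, and all 42 were found once in each. Each matrix is 1 library of nuclei pooled from the right and left TA of 2 male C57BL/6 mice aged 6 weeks. The WT-labelled library came from Myf6-Cre+ Bcl6 wt/wt animals and the KO-labelled library from their Myf6-Cre+ Bcl6 fl/fl littermates, so both genotypes carry the Cre transgene, whose Myf6 promoter is active in skeletal muscle cells. Bcl6 encodes a transcriptional repressor, and the floxed allele loses exons 7 to 9. With 1 library per genotype there is no replicate check. No test was made, and every interval given is a 95% interval that covers counting error only.

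A muscle fiber takes up fatty acids that lipoprotein lipase releases from circulating triglycerides, with CD36 as a main transporter and fatty acid binding proteins as carriers in the cytosol. The fatty acids are activated to acyl-CoA, stored as triglyceride in droplets coated by perilipins, or passed into mitochondria by the carnitine shuttle, which malonyl-CoA inhibits. Beta-oxidation then shortens them to acetyl-CoA, while acetate is activated to the same product by ACSS1 inside mitochondria and by ACSS2 in the cytosol and nucleus. Oxidative fibers are known for a greater capacity for fat oxidation than glycolytic ones.

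The WT-labelled library held 3798 barcodes and 11974138 unique molecular identifiers (UMIs, each standing for 1 captured RNA molecule), and the KO-labelled one had 12026013 UMIs in 4096 barcodes. The libraries share 6 barcodes. After filters, 2414 and 3087 nuclei were classed as myonuclei, with 8863870 and 9655026 UMIs. Each was given the fiber type of the myosin heavy chain gene with most UMIs (Myh4 for IIb, Myh1 for IIx, Myh2 for IIa). IIb, IIx and IIa nuclei numbered 704, 1161 and 234 in the WT-labelled library and 611, 1176 and 482 in the KO-labelled library, and a further 313 and 799 had no such UMI or a tie. Bcl6 itself had 1485 UMIs or 168 CPM (UMIs scaled to a total of 1000000 per group) in myonuclei of the WT-labelled library and 4843 UMIs or 502 CPM in those of the KO-labelled library, which goes against the label. A 3′ tag outside the deleted exons would still be counted, so this is no check of the deletion, and both libraries are named here by their labels only.

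**Figure D1:**
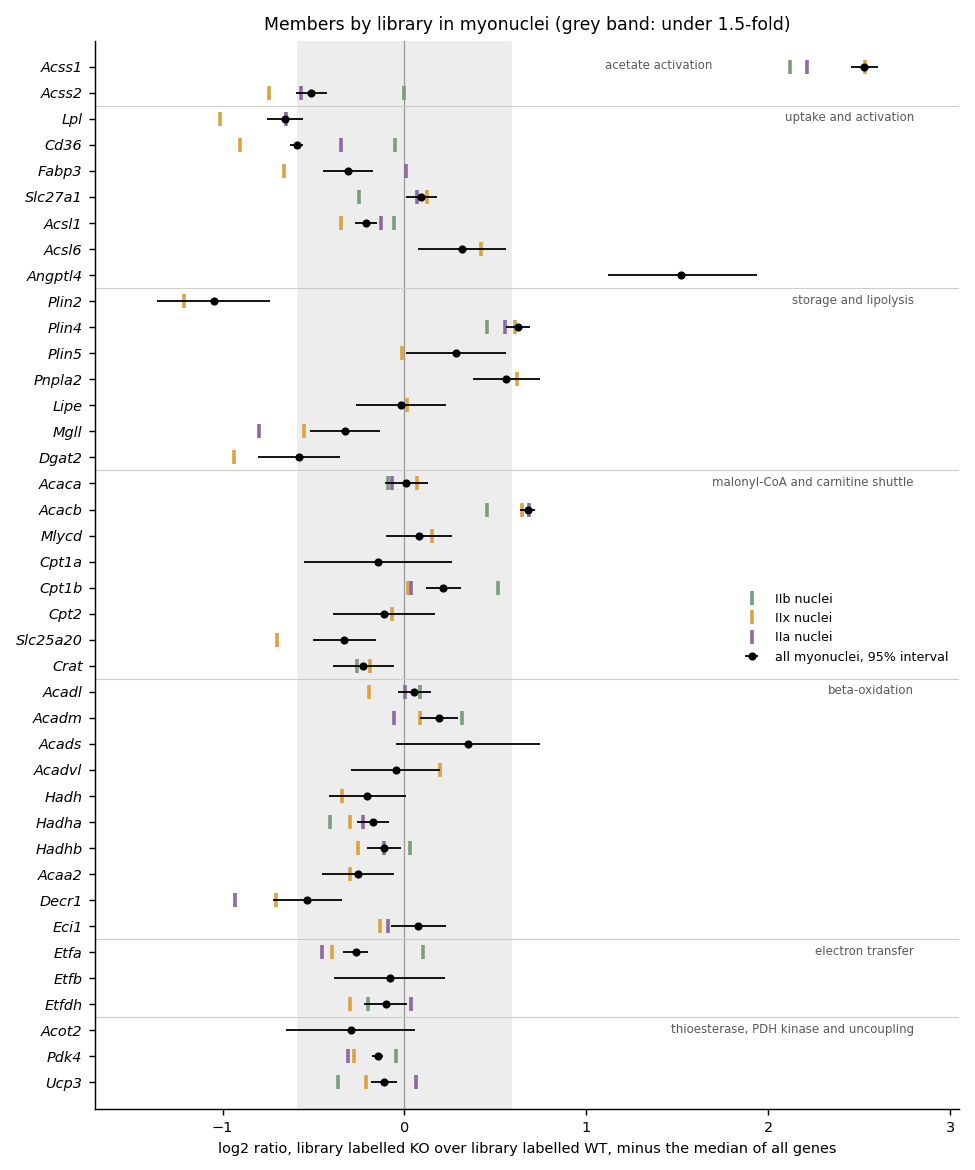
Log2 ratio of the KO-labelled library to the WT-labelled library for the 40 members with at least 200 UMIs, ordered by role, after subtracting the median of all genes. Black points with bars are all myonuclei with 95% counting intervals, colored ticks are IIb, IIx and IIa nuclei where tested, and the grey band is under 1.5-fold. Acss1 stands at 2.53 and its ticks at 2.12 to 2.53, while most other members lie inside the band.

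Between the libraries, Acss1 differed by more than any other member compared. Of the 42 members, 40 had at least 200 UMIs over both libraries' myonuclei, the minimum for a comparison, and Fabp4 (79 UMIs) and Dgat1 (130 UMIs) did not. A member was called at 1.5-fold or more from the median ratio of all 6988 genes compared, and log2 ratios are given relative to that median, which itself was -0.15 on the log2 scale. In all, 4 members were called higher in the KO-labelled library (Acss1, Angptl4, Acacb and Plin4), where 9.54% of all genes were, and 3 were called lower (Plin2, Lpl and Cd36), where 5.71% of all genes were. These are 10% and 7.5% of the members compared, close to the shares of all genes. Without the median subtracted, 2 were higher (Acss1 and Angptl4, with Acacb at 0.53 and Plin4 at 0.48) and 6 lower. With nuclei thinned to 1000 UMIs, 4 were higher and 1 lower. The shares of all genes called were not computed for these settings. The median of the 40 members was -0.11, with 15 above and 25 below the median of all genes. The whole counting interval lay beyond 1.5-fold for Acss1, Angptl4, Acacb and Plin2, and reached inside it for Plin4, Lpl and Cd36.

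Of the enzymes that activate acetate, Acss1 (mitochondrial) was higher in the KO-labelled library and Acss2 (cytosolic and nuclear) was not. Acss1 (chr2:150618105-150668500, GRCm38) rests on 1708 UMIs or 193 CPM in the WT-labelled library and on 9692 UMIs or 1004 CPM in the KO-labelled library. This is a 5.77-fold difference, or 2.53 on the log2 scale (2.45 to 2.60), and it ranked 35 from the top among the 6988 genes. Acss2 had 308 CPM and 195 CPM, a log2 ratio of -0.51 (-0.60 to -0.43), which falls short of the call. Under other settings it ran from -0.66 to -0.44, past the call at the lower end. Of the UMIs of both genes together, Acss1 took 38.5% (37.1 to 40.0) in the WT-labelled library and 83.7% (83.1 to 84.4) in the KO-labelled library. By fiber type that share was 48.4%, 36.8% and 36.7% in IIb, IIx and IIa nuclei labelled WT, and 80.3%, 85.0% and 79.9% in those labelled KO, so that the libraries do not overlap in any fiber type.

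With each nucleus thinned to 1000 UMIs, Acss1 was detected in 14.7% (13.3 to 16.2) of 2387 myonuclei labelled WT and in 47.5% (45.7 to 49.3) of 3014 labelled KO. Fibro-adipogenic progenitor (FAP)-like nuclei, thinned alike, gave 0.501% and 1.12%, and endothelial-like nuclei 3.92% and 7.96%. Both are under the shares in myonuclei of the same library. Thinning left out 27 and 73 myonuclei, and without it the shares for Acss1 were 33.8% and 65.8%, at median depths of 3127.5 and 2714 UMIs. Acss2 was detected in 23.1% and 16.5% of the thinned myonuclei, and in 50.5% and 35.2% without thinning. The order of the libraries was the same with and without thinning for both genes.

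The stretches in front of the RefSeq starts of the acetate genes are shown because Acss1 and Acss2 moved apart between the libraries. Both come from RefSeq windows on GRCm38.p6 and were cut to the bases that no exon of GENCODE M21 covers. For Acss1 (chr2:150668259-150668337, minus strand) these are 79 bases inside the annotated span of the gene, and for Acss2 (chr2:155517793-155517947, plus strand) the 155 bases before its outermost exon. Capitals mark each GC box, GGGCGG on either strand, of which they hold 1 and 3.
Acss1: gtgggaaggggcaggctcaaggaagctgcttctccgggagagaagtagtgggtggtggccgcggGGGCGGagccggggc
Acss2: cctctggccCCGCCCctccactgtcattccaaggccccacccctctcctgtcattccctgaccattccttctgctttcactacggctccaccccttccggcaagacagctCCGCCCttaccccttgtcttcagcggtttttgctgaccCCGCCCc
At least 1 GC box is found in 35.7% of the 32851 RefSeq windows of 300 bases, and in 22 of the 33 members that have a window. Holding a GC box is thus not particular to these 2 genes. The share of windows with 3 boxes was not counted. Acss1 overlaps E130215H24Rik on the other strand and Acss2 overlaps Ggt7, Acss2os and Gss. In all, 13 of the 42 members overlap a gene on the other strand and 0 one on the same strand, and whether the counting used strand is not given in the sources used here.

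Among the genes of uptake and activation, Lpl and Cd36 were lower in the KO-labelled library and Angptl4 was higher. Lpl (chr8:68880491-68907448), which encodes lipoprotein lipase, had 250 CPM and 143 CPM, a log2 ratio of -0.66 (-0.75 to -0.56). Angptl4 (chr17:33773750-33781830), which encodes a secreted inhibitor of lipoprotein lipase, had 69 and 195 UMIs, or 7.78 and 20.2 CPM, a 2.87-fold difference with a wide interval (1.12 to 1.94 on the log2 scale). Over all myonuclei, Lpl and its inhibitor thus lay on opposite sides of the median of all genes, but largely through different nuclei. Most Angptl4 UMIs came from cluster 1 of the myonuclear clusters described below (41 and 143 UMIs), where Lpl stood at -0.31. In cluster 0, where Lpl stood at -0.70, Angptl4 had 15 and 26 UMIs. Angptl4 was under the minimum in each cluster.

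Cd36 (chr5:17781690-17888801) had 1781 CPM and 1067 CPM, a log2 ratio of -0.59 (-0.63 to -0.56), and was detected in 52.8% and 40.6% of the thinned myonuclei. Fabp3, the fatty acid binding protein of muscle and heart, had a ratio of -0.31 and Acsl1, the main acyl-CoA synthetase of muscle, one of -0.21. Slc27a1, which encodes the transport protein FATP1, and Acsl6, another acyl-CoA synthetase, stood at 0.09 and 0.32. Endothelial cells also express Cd36 and Fabp4. The 10 endothelial markers summed in the same myonuclei gave 48.9 and 49.4 CPM, against 18757 and 17050 CPM in endothelial-like nuclei. The part of endothelial RNA in the Cd36 values was not tested.

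Of the genes of storage and lipolysis, Plin4 and Plin2, both perilipins of the droplet surface, moved in opposite directions. Plin4 (chr17:56100591-56109803) had 343 CPM in the WT-labelled library and 479 CPM in the KO-labelled library (0.63, 0.56 to 0.69). Plin2 (chr4:86648386-86670060) had 275 and 131 UMIs, or 31.0 and 13.6 CPM (-1.05, -1.36 to -0.74). Plin5, the perilipin of oxidative tissue, lay between at 0.28 (0.01 to 0.56). Pnpla2, the adipose triglyceride lipase that starts lipolysis, had 410 and 594 UMIs and a ratio of 0.56, and Dgat2, which makes triglyceride, had 419 and 276 UMIs and a ratio of -0.58, both just short of a call. Lipe (hormone-sensitive lipase) and Mgll (monoacylglycerol lipase) stood at -0.02 and -0.32.

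These droplet genes are also adipocyte genes. Adipoq, Cidec, Lep and Adrb3, which define adipocytes, had 0 UMIs in all nuclei of both libraries, Plin1 had 10 and 2, and Cfd had 0 and 1. Summed over the 10 adipocyte markers, myonuclei held 1154 and 551 CPM, with 5 and 6 markers detected. Of that sum, 10114 of 10226 UMIs in the WT-labelled library and 5243 of 5322 in the KO-labelled library came from Ghr, the growth hormone receptor, which muscle expresses.

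Of the genes around malonyl-CoA and the carnitine shuttle, Acacb was called and the other 7 were not. Acacb (chr5:114146535-114250761), the acetyl-CoA carboxylase at the mitochondrial surface, had 862 CPM and 1246 CPM (0.68, 0.64 to 0.72). Acaca, the cytosolic carboxylase, had 134 and 122 CPM and lay at 0.01 (-0.11 to 0.13). Mlycd, which degrades malonyl-CoA, lay at 0.08. Cpt1b, the muscle carnitine palmitoyltransferase at the entry to the shuttle, had 187 and 196 CPM (0.21, 0.12 to 0.31), while Cpt1a, the liver form, had 109 and 97 UMIs. Cpt2 and Crat, the transferases inside the mitochondrion, stood at -0.11 and -0.23, and Slc25a20, the carnitine carrier of the inner mitochondrial membrane, at -0.33. Cpt1b took 93.8% of the UMIs of Cpt1b and Cpt1a in the WT-labelled library and 95.1% in the KO-labelled library.

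None of the 10 genes of beta-oxidation and none of the 3 of electron transfer was called in all myonuclei. The dehydrogenases of the first step stood at 0.05 (Acadl), 0.19 (Acadm), 0.35 (Acads) and -0.05 (Acadvl). Hadha and Hadhb, the subunits of the trifunctional protein for long chains, had 246 and 215 CPM in the WT-labelled library and 197 and 179 CPM in the KO-labelled library, at -0.17 and -0.11. Hadh, Acaa2 and Eci1, which serve later or side steps, stood at -0.20, -0.26 and 0.08. Decr1, needed for unsaturated fatty acids, was the lowest at -0.53 (-0.72 to -0.35). The subunits of the electron transfer flavoprotein, Etfa and Etfb, and its dehydrogenase, Etfdh, stood at -0.27, -0.08 and -0.10.

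Pdk4, the kinase that shuts pyruvate out of oxidation, had 1884 and 1536 CPM (-0.15). Ucp3, an uncoupling protein of muscle mitochondria, stood at -0.11, and Acot2, a mitochondrial thioesterase, at -0.30 on 151 and 121 UMIs. These 3 were all between the calls.

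IIb nuclei had lower levels than IIa nuclei for most of the members that could be compared. In the WT-labelled library, 20 members had at least 200 UMIs over IIa and IIb nuclei together, 15 of these were called higher in IIa and 0 lower, and the median was 1.59 on the log2 scale. Of all genes compared there, 18.2% were higher and 18.4% lower. In the KO-labelled library, 17 of 21 members were called higher and 0 lower with a median of 1.63, against 20.5% and 15.1% of all genes. A total of 19 members could be compared in both libraries, and 15 were called higher in both, against 13.5% of 2443 genes. At 2-fold or more in both there were 14, against 6.92% of those genes. A member low in IIb can reach the minimum mostly through IIa, as Fabp3 did in the WT-labelled library (42 UMIs in IIb and 176 in IIa). The same minimum applied to all genes.

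**Figure D2:**
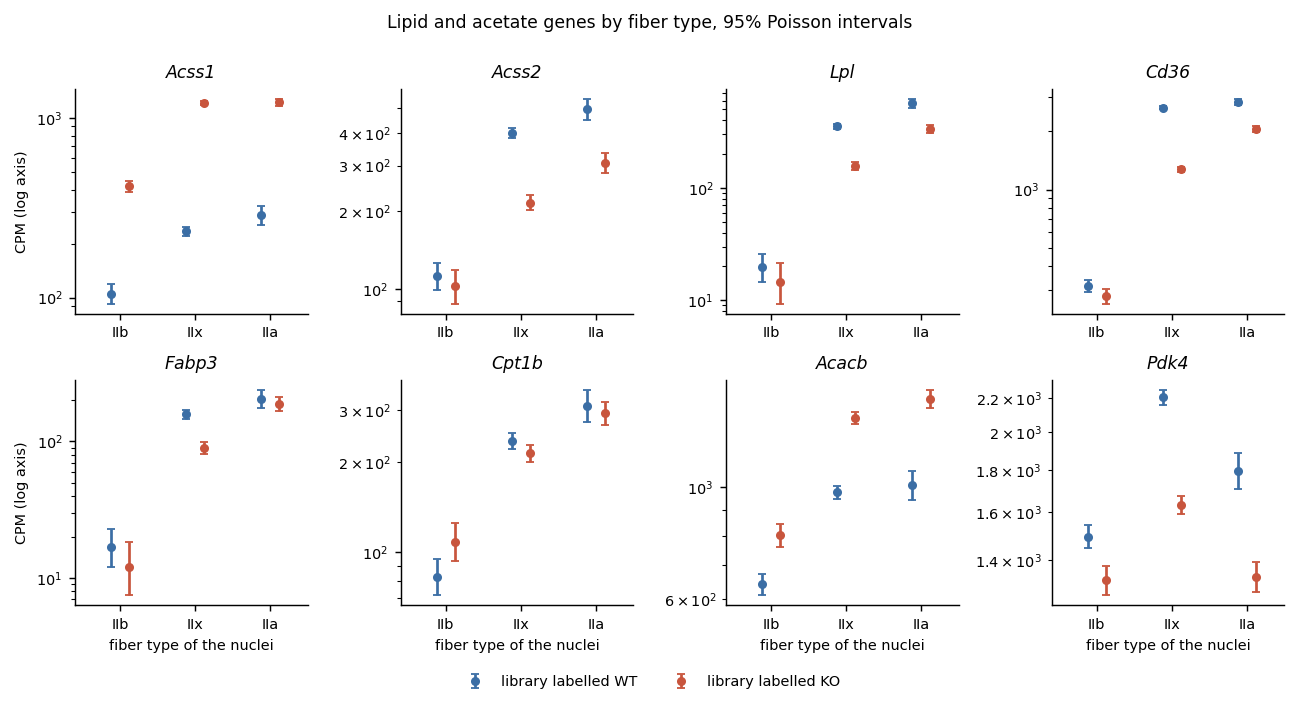
Level of 8 members in IIb, IIx and IIa nuclei, in CPM on log axes that differ between panels, with 95% Poisson intervals. Blue points are the WT-labelled library and red points the KO-labelled library. Lpl, Cd36 and Fabp3 are lowest in IIb in both libraries, Acss1 is higher in red in every fiber type, and Pdk4 is highest in IIx.

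Among the 19 members compared in both libraries, the 3 steepest were Lpl, Fabp3 and Cd36, all genes of uptake. Lpl had 19.6, 353 and 569 CPM in IIb, IIx and IIa nuclei labelled WT and 14.4, 157 and 334 CPM in those labelled KO, so IIa exceeded IIb by 30.3-fold and 23.8-fold. Fabp3 had 16.8, 158 and 204 CPM and then 12.1, 89.7 and 188 CPM (12.7-fold and 16.0-fold). The IIb levels rest on few UMIs, 49 and 25 for Lpl and 42 and 21 for Fabp3, so these folds are loose. Both genes reach the minimum mostly through IIa. Under other settings the log2 ratio of IIa over IIb for Lpl ran from 4.64 to 5.18 (WT) and from 4.27 to 6.62 (KO). For Fabp3 it ran from 3.38 to 3.75 and from 3.76 to 5.20. Cd36 had 318, 2645 and 2836 CPM and then 281, 1270 and 2054 CPM (9.33-fold and 7.53-fold). For all 3 the order was IIb, IIx, IIa in each library, although IIx and IIa lay only 0.10 apart on the log2 scale for Cd36 in the WT-labelled library and 0.68 apart in the KO-labelled library. Members under the minimum were not ranked. Mgll, for example, had 10.0 and 150 CPM in IIb and IIa nuclei labelled WT, on 25 and 130 UMIs. In those labelled KO it had 15.6 and 79.6 CPM, on 27 and 133 UMIs. Dgat1 had 4.81 and 16.2 CPM, then 8.67 and 4.79 CPM.

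The acetate genes followed the same order in the WT-labelled library. Acss1 had 105, 235 and 287 CPM in IIb, IIx and IIa nuclei labelled WT and 418, 1219 and 1227 CPM in those labelled KO, where IIx and IIa did not differ beyond counting error (0.00, -0.07 to 0.08). Acss2 had 112, 402 and 495 CPM and then 102, 216 and 308 CPM. IIa exceeded IIb by 1.51 and 1.60 on the log2 scale for Acss1 and by 2.21 and 1.63 for Acss2.

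The other 9 members at 2-fold or more in both libraries were Slc27a1, Acsl1, Cpt1b, Acadl, Acadm, Hadha, Hadhb, Etfa and Etfdh, at log2 ratios from 1.29 (Acadl) to 2.21 (Hadha) in the WT-labelled library and from 1.02 (Etfa) to 2.38 (Hadha) in the KO-labelled library. Activation, mitochondrial entry, beta-oxidation and electron transfer were thus each represented. Acacb was called in both at less than 2-fold (0.72 and 0.94). The 4 not called in both were Plin4, Acaca, Pdk4 and Ucp3. Plin4 stood at 0.27 and 0.36, Acaca at 0.50 and 0.52, Pdk4 at 0.33 and 0.06, and Ucp3 at -0.14 and 0.27.

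**Figure D3:**
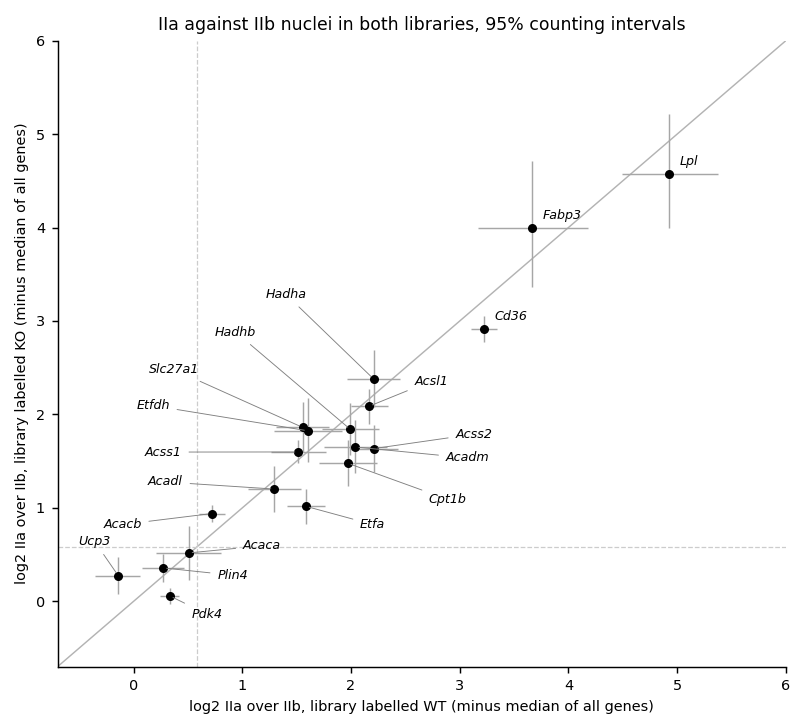
Log2 ratio of IIa to IIb nuclei for the 19 members tested in both libraries, minus the median of all genes, with the WT-labelled library on the x axis and the KO-labelled library on the y axis. Bars are 95% counting intervals, dashed lines mark 1.5-fold and the diagonal marks equal ratios. Lpl, Fabp3 and Cd36 lie farthest out, and Plin4, Acaca, Pdk4 and Ucp3 lie inside the dashed lines.

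IIx nuclei, more numerous, allowed more members to be compared with IIb. In the WT-labelled library 24 of 32 members were called higher in IIx and 0 lower, against 16.8% and 10.6% of all genes, and in the KO-labelled library 21 of 28 and 0, against 17.4% and 8.38%. Dgat2 (10.0 and 63.4 CPM in IIb and IIx) and Acaa2 (14.4 and 68.3 CPM) were among those added in the WT-labelled library. IIa and IIx differed less: 6 of 31 members were higher in IIa in the WT-labelled library (Lpl, Plin2, Mgll, Dgat2, Mlycd and Decr1), against 4.15% of all genes, and 7 of 30 in the KO-labelled library (Lpl, Cd36, Fabp3, Mgll, Dgat2, Slc25a20 and Decr1), against 3.91%. None was lower, against 4.78% and 4.39%. Lpl, Mgll, Dgat2 and Decr1 appear in both libraries.

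Hadha and Hadhb, which encode partner subunits and moved together with fiber type, lie head to head on chromosome 5. Their RefSeq windows share 1 match to TTCNNNGAA, the palindrome bound by STAT factors that BCL6 is also known to recognize, read here from both strands. Windows were found for 33 of the 42 members, and 5 of these hold the match (Cpt2, Hadha, Hadhb, Lipe and Ucp3), against 8.30% of all 32851 windows. The matches are shown with 10 bases on each side, with the 9 matching bases in capitals, at chr4:107923771-107923799 (Cpt2, minus strand), chr5:30155118-30155146 (Hadha, minus, and Hadhb, plus), chr7:25395972-25396000 (Lipe, minus) and chr7:100472919-100472947 (Ucp3, plus).
Cpt2: ttctatccagTTCTGTGAAaggaaaagag
Hadha: tagtctcaccTTCAGAGAAatcatccttt
Hadhb: aaaggatgatTTCTCTGAAggtgagacta
Lipe: gcgggccaggTTCAAGGAAaggtgaatga
Ucp3: gtcaactagcTTCTCAGAAttaggtttca
The bases between the outermost exons of Hadha and Hadhb that the window of Hadha covers (chr5:30155163-30155230, 68 bases, minus strand) hold 1 GC box, in capitals.
Hadha to Hadhb: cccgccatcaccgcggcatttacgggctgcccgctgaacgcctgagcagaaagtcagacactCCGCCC
Of the other motifs searched on both strands, TTCCTAGAA, which is one form of TTCNNNGAA, is in 0.411% of all windows and in 0 of the members', TCAAGGTCA (the ERR motif) in 0.423% and in Acsl6, and the direct repeat of AGGTCA with 1 base between (the PPAR motif) in 0.0396% and in 0. None of the members called between the libraries holds TTCNNNGAA in its window, and Lpl and Angptl4 have no window here. With 8.30% of all windows holding the match, its absence from so few genes says little about them. These are matches of letters, and no binding was measured.

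Within fiber types, the members called lower in the KO-labelled library numbered 8 in IIx, 3 in IIa and 0 in IIb nuclei, with different numbers compared. Among IIb nuclei 18 members could be compared, 1 was higher (Acss1) and 0 were lower, against 7.86% and 6.83% of all genes. Among IIx nuclei 35 could be compared, 4 were higher (Acss1, Acacb, Pnpla2 and Plin4) and 8 lower, which is 11.4% and 22.9% of them against 9.59% and 6.55% of all genes. Among IIa nuclei 22 could be compared, 2 were higher (Acss1 and Acacb) and 3 lower (Decr1, Mgll and Lpl), against 9.01% and 5.51%. The IIx count of lower members was 3 with nuclei thinned to 1000 UMIs and 2 at 2-fold. The IIa count of lower members was 6 with a minimum of 50 UMIs and 10 with a minimum of 1. Thinning and the minimum change how many members are compared, and the share of all genes called was not computed for these settings. Among nuclei with no fiber type 17 could be compared, 3 were higher (Acss1, Acacb and Plin4) and 0 lower, against 12.5% and 7.13%.

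The 8 lower in IIx were Plin2 (-1.21), Lpl (-1.01), Dgat2 (-0.94), Cd36 (-0.90), Acss2 (-0.74), Decr1 (-0.71), Slc25a20 (-0.70) and Fabp3 (-0.66), so uptake and storage were both represented. Cd36 in IIb nuclei stood at -0.05 (-0.22 to 0.11) and in IIa nuclei at -0.35 (-0.42 to -0.27), and neither interval overlaps that in IIx (-0.95 to -0.86). Acss2 stood at -0.74 (-0.86 to -0.63) in IIx and at 0.00 (-0.28 to 0.28) in IIb. Lpl and Fabp3 had too few UMIs in IIb for a ratio between the libraries. Whether such differences between fiber types exceed the spread between animals was not tested, as there is 1 library per genotype.

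Myh1 gave 96.6% and 95.7% of the heavy chain UMIs of IIx nuclei in the 2 libraries, Myh4 1.17% and 1.38%, and Myh2 2.24% and 2.90%. The IIx nuclei lay differently over the clusters described next: cluster 0 held 611 of 1161 in the WT-labelled library and 447 of 1176 in the KO-labelled library, cluster 1 held 339 and 404, and cluster 5 held 142 and 208. Within the IIx nuclei of cluster 0, 27 members could be compared, and 4 were higher and 4 lower (Lpl, Mgll, Slc25a20 and Decr1), against 13.3% and 10.4% of all genes. There Cd36 stood at -0.52 (-0.58 to -0.46), short of the call, and Acss1 at 2.98 (2.87 to 3.10). Within those of cluster 1, 1 of 25 members was higher (Acss1, 1.22, 1.00 to 1.44) and 9 lower, against 6.98% and 5.24% of all genes, with Cd36 at -1.04 (-1.12 to -0.96) and Fabp3 at -1.05 (-1.43 to -0.68). Lpl, Slc25a20 and Decr1 were lower in both. The part of the cluster makeup in the ratio over all IIx nuclei was not tested further. IIa nuclei, where Lpl, Cd36 and Acss2 are highest, were 234 of 2414 myonuclei in the WT-labelled library and 482 of 3087 in the KO-labelled library.

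Acss1 was higher in the KO-labelled library in each of the 5 myonuclear clusters, and Cd36 was not lower in each. The clusters were formed without the members and without genes 2-fold apart between the libraries. Acss1 ranged from 1.18 (cluster 1) to 3.25 (cluster 5), Acacb from 0.28 to 0.93 and Plin4 from 0.04 to 0.90, all above the median of all genes in 5 of 5 clusters. Cpt1b was also on that side in 5 of 5, at 0.00 to 0.39, and Acsl1 and Etfa were below it in 5 of 5. These are counts of sides only. Some counting intervals took in the median, as for Plin4 in cluster 1 (-0.13 to 0.21) and Cpt1b in cluster 5 (-0.30 to 0.31). The same held for Acsl1 in cluster 2 (-0.34 to 0.17) and Etfa in cluster 3 (-0.33 to 0.23).

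**Figure D4:**
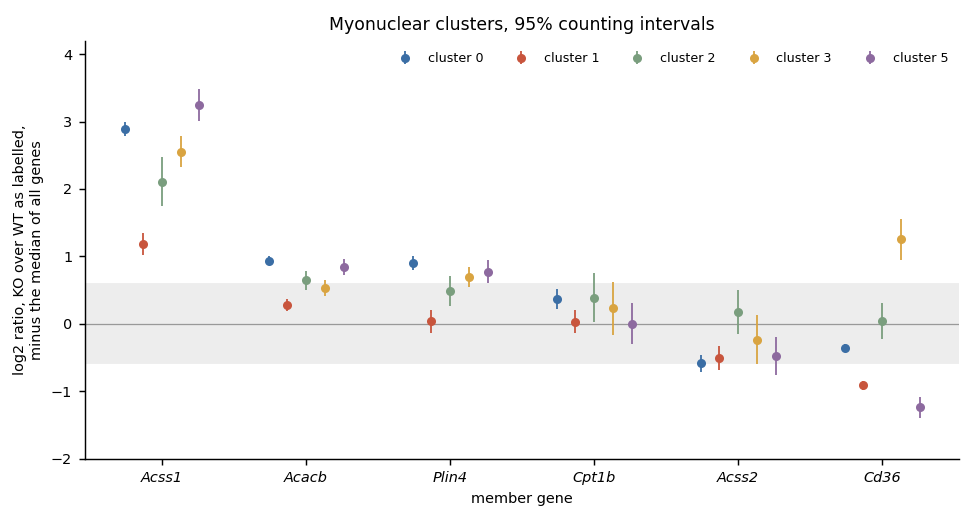
Log2 ratio of the KO-labelled library to the WT-labelled library, minus the median of all genes, in 5 myonuclear clusters, with 95% counting intervals and the band under 1.5-fold in grey. Acss1 is above the band in 5 of 5 clusters, and Cd36 runs from -1.24 in cluster 5 to 1.25 in cluster 3.

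Cd36 was lower in clusters 0, 1 and 5 (-0.35, -0.91 and -1.24), at 0.04 in cluster 2 and higher in cluster 3, where it had 143 and 241 UMIs (1.25, 0.95 to 1.56). Cluster 3, led by Ctxn3, Tfcp2l1 and Gpt2, held 282 IIb nuclei and 138 of no fiber type in the WT-labelled library, and 131 and 268 in the KO-labelled library. Whether this makeup bears on the ratio was not tested. Clusters 0 and 1 hold most of the IIx and IIa nuclei, and there Lpl stood at -0.70 and -0.31 and Acss2 at -0.59 and -0.51.

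**Figure D5:**
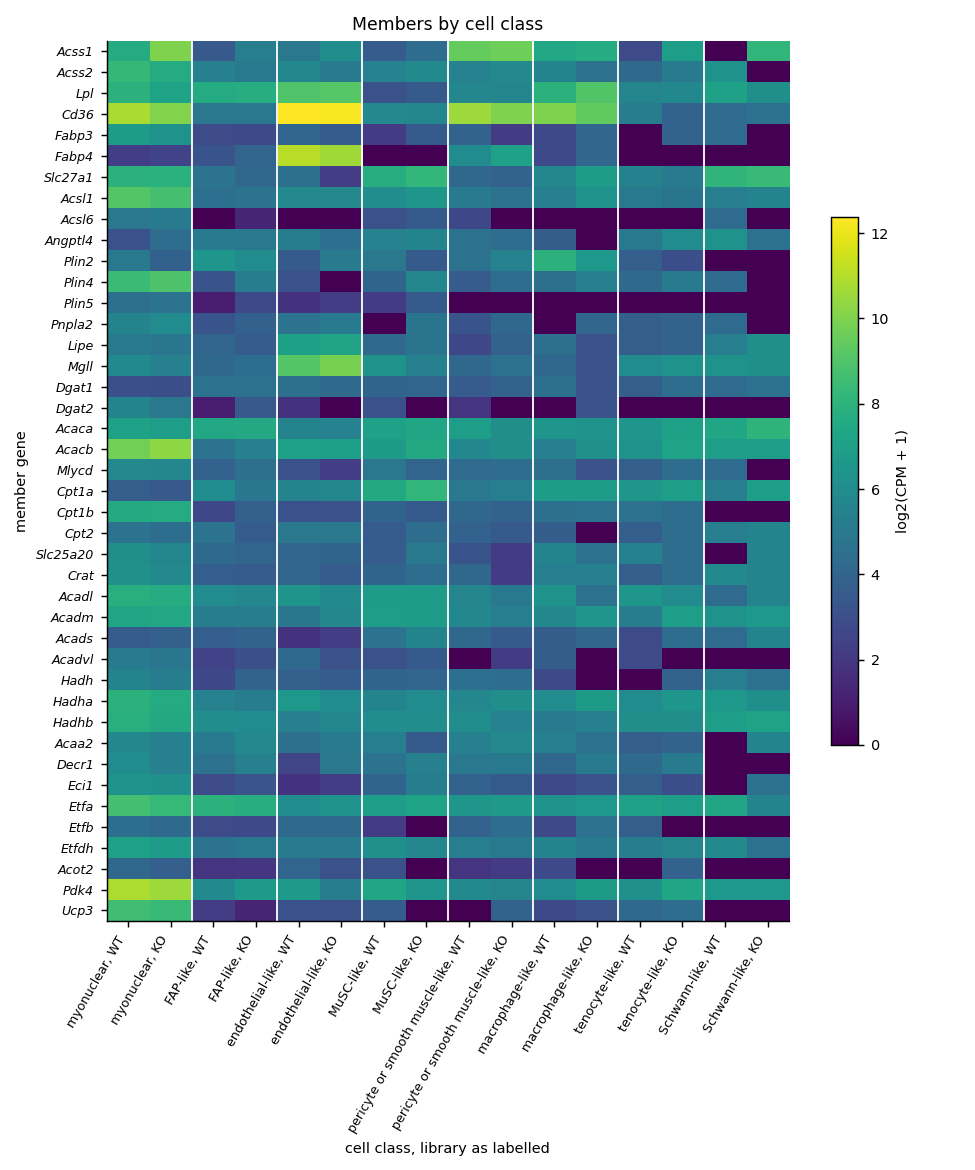
Level of all 42 members in 8 cell classes of each library, as log2(CPM + 1), with members in rows by role and a pair of columns (WT, KO) per class. Cd36 and Fabp4 are brightest in endothelial-like nuclei, Acss1 in pericyte or smooth muscle-like nuclei and in myonuclei labelled KO, and dark cells are levels near 0.

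Outside the fibers, some members belonged to other cells of the muscle. Classes are called X-like after marker genes. In endothelial-like nuclei (223 and 130), which line the vessels from which fatty acids enter, Fabp4 had 2095 and 1548 CPM, 531-fold and 340-fold over myonuclei. Cd36 had 5343 and 4839 CPM there against 1781 and 1067 CPM in myonuclei, Mgll 543 and 923 CPM (9.45-fold and 22.3-fold) and Lipe 133 and 149 CPM (4.27-fold and 5.38-fold). Lpl had 497 and 547 CPM in the same nuclei, on 195 and 147 UMIs. Between the libraries, endothelial-like Cd36 differed by -0.18 (-0.28 to -0.08) and Lpl by 0.10 (-0.22 to 0.41) after the median of that class was subtracted, against -0.59 and -0.66 in myonuclei. Mgll was higher there in the KO-labelled library, on 213 and 248 UMIs (0.73, 0.46 to 1.00).

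Cpt1a, the liver form of the transferase, had 183 and 280 CPM in muscle stem cell (MuSC)-like nuclei, 14.9-fold and 27.8-fold over myonuclei, and 63.7 and 28.3 CPM in FAP-like nuclei. Plin2 had 89.5 and 60.9 CPM in FAP-like nuclei (2.89-fold and 4.49-fold), and Fabp4 62.8 and 134 CPM in pericyte or smooth muscle-like nuclei. Other pairs of member and class at 2-fold or more over myonuclei in both libraries had under 20 UMIs in at least 1 library, and are among Fabp4, Dgat1, Cpt1a, Angptl4, Acads and Plin2.

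Acss1 was also found outside the fibers, with its highest level there in 1 of the classes shown. Pericyte or smooth muscle-like nuclei (159 and 117) had 696 and 801 CPM on 255 and 233 UMIs, a log2 ratio of 0.17 (-0.09 to 0.43) after the median of that class. That interval lies below the ratio of 2.53 in myonuclei. Among classes with few Acss1 UMIs, FAP-like nuclei had 11 and 27 (10.2 and 38.3 CPM), a log2 ratio of 1.98 (0.92 to 3.14), and tenocyte-like nuclei had 1 and 17 (4.17, 1.49 to 9.55). Schwann-like nuclei had 0 and 12 (4.70, from 1.59 up with no upper bound), where the class median rests on 21 genes. In endothelial-like (12 and 18 UMIs, 1.09, -0.04 to 2.28), macrophage-like (29 and 25, 0.28) and MuSC-like nuclei (3 and 4, 0.92, -1.64 to 3.70) the counting interval reached 0. Whether RNA from fibers reached these nuclei was not tested. Cd36 was lower in the KO-labelled library also in pericyte or smooth muscle-like (551 and 294 UMIs, -0.60) and macrophage-like nuclei (176 and 81 UMIs, -0.63). Macrophage markers summed to 29.1 and 89.2 CPM in myonuclei, and the part of macrophage RNA in these values was not tested either. The sum is not given by gene here. In IIa nuclei it rested on 2 of the 10 markers (33 UMIs) in the WT-labelled library and 5 (155 UMIs) in the KO-labelled library.

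A second list of 50 genes of the same pathways gave the wider picture. All 50 were found and 32 had at least 200 UMIs in myonuclei. None was called higher in the KO-labelled library and 5 were called lower, with a median of -0.12, where 9.54% of all genes were higher and 5.71% lower. The 3 lowest were Acsl3 (-1.58), Acsl4 (-1.09), both acyl-CoA synthetases, and Acad11 (-0.92), an acyl-CoA dehydrogenase. The other 2 called lower were Slc22a5, the carnitine transporter of the cell membrane (-0.85), and Acss3, a further acyl-CoA synthetase of short chains (-0.69). The 3 highest were Pdk1 (0.56), Acadsb (0.54) and Pdp1 (0.50), none called. Between IIa and IIb, 9 genes were compared in both libraries. Of these, 5 were called higher in IIa in both, among them Oxct1, an enzyme of ketone use (2.78 and 2.94). None was called lower in both. Of 2443 genes, 13.5% were higher in both and 257 lower in both. Lpin1 (-0.82 and -0.54) and Acadsb (-0.67 and -0.43) lay on the lower side in both, past the call in the WT-labelled library only.

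The genes whose level ran most like that of Acss1 over the 6 groups of fiber type and library were Fam126a (Pearson's r = 0.996), Fam13c (0.994) and Gm20275 (0.994), out of 6988 genes, of which 44 had r of at least 0.95. Fam126a had 28.2 and 33.6 CPM in IIx and IIa nuclei labelled WT and 61.2 and 63.4 CPM in those labelled KO. The 6 groups come from 2 libraries, so these values are a description only.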

How the data were processed

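Single-nucleus RNA of 2 libraries was analysed. The deposited matrices hold UMI counts per gene and nucleus, made by the authors with Cell Ranger 7.0.0 (file headers), and the labels name mm10 and Seurat 5.0.3. The study's methods name a 3′ kit and the labels a multiome kit. Nuclei with 200 to 5000 genes and at most 5% mitochondrial UMIs were kept (9 and 18 removed in the WT- and KO-labelled libraries), and the Scrublet scores highest at 0.8% per 1000 barcodes were removed as doublets (115 and 134). This left 3674 and 3944 nuclei, with medians of 2555 and 2478.5 UMIs. Nuclei were clustered with Seurat 5.3.0 (R 4.3.3; 2000 variable genes, 30 components, resolution 0.5, seed 1), without 441 genes (the 42 members and 402 genes at 2-fold or more between libraries, some in both), and classes were named from marker lists. UMIs were summed per library and group, since nuclei are not replicates. CPM are UMIs scaled to 1000000 per group. Ratios have exact conditional intervals, levels exact Poisson and shares exact Clopper-Pearson intervals at 95%, and a count of 0 entered a ratio as 0.5. Interval code was tested on simulated data. Tools were Python 3.11.15, scipy 1.17.1, scanpy 1.11.5 and edgeR 4.0.16 (TMM factors only). Sequences are from RefSeq (GRCm38.p6), and 32235 of 32285 identifiers matched GENCODE M21.

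The members, lists and rules were chosen with earlier results of these data known. Named in full were members called between libraries in all myonuclei, members 2-fold higher in IIa than IIb or in another cell class in both libraries, Acss1 with Acss2, the 3 highest and lowest of the adjoining list and the 3 genes most like Acss1. Plin1, Ghr and other markers and the members within fiber types were added after their values were seen. Alternatives are listed with the limits. Reads, replicate spread and type I nuclei (2 and 19) were not analysed here.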

Additional observations from a re-analysis of the deposited data

How the results depend on the processing

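Of 806 values recomputed under 20 alternative settings, 710 stayed within 1.5 times the count, within the counting interval or, for medians, within 0.2. Among the ratios of single genes that were called, 0 reversed. Some values could not move. A 2-fold call changes counts only, so ratios and medians under it stay the same by construction. Another minimum changes the ratio of a single gene only through the median subtracted. Acss1 kept a log2 ratio of 2.33 to 2.55 in all myonuclei under all 15 settings, and Lpl (-0.80 to -0.56), Cd36 (-0.74 to -0.54), Plin4 (0.48 to 0.64) and Acacb (0.53 to 0.69) crossed 1.5-fold under some. Acss2, not called in the main setting, ran from -0.66 to -0.44 and so also crossed 1.5-fold. Sums over libraries without replicates limit every statement to these 2 libraries. No paired analysis was possible because each genotype has 1 library.

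In all myonuclei, without centring 2 members were higher and 6 lower, at a 2-fold call 2 and 1. The lower calls became 1 with nuclei thinned to 1000 UMIs and 5 with fiber types weighted equally. In IIb, 3 were higher with at least 50 UMIs, 7 higher and 1 lower with at least 1 UMI, and 2 lower in pure fiber types (at least 3 Myh UMIs, 80% from 1 gene). In IIx, 1 was higher without centring, 2 with TMM, 1 with median-of-ratios scaling and 1 at 2-fold, and 2 were lower at 2-fold and 3 when thinned. Within IIx nuclei of cluster 0, 4 were lower, and within those of cluster 1, 1 was higher (both settings chosen after seeing the data). In IIa, 1 was higher without centring, at 2-fold and when thinned, and 6 were lower with at least 50 UMIs, 10 with at least 1 UMI, 0 at 2-fold and 1 in pure fiber types, with a median of -0.29 when thinned.

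For IIa over IIb in the WT-labelled library, 30 were higher with at least 50 UMIs, 33 with at least 1 UMI (median 1.39) and 4 when thinned (median 0.85). In the KO-labelled library it was 29 higher and 1 lower with at least 50 UMIs, 31 and 3 with at least 1 UMI (median 1.13), and 7 higher when thinned (median 1.08), with a median of 1.84 in pure fiber types. For IIx over IIb in the WT-labelled library, 14 were higher when thinned. Except for the IIx clusters, the share of all genes called was not computed under the alternative settings of this section. The counts given here thus cannot be read against that share. Thinning leaves fewer members with 200 UMIs, and a lower minimum admits more. For the other changes the cause was not tested.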
